A study of Mus musculus with 12 samples.

Results

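The ΔSAP line of the mouse mammary carcinoma cells 4T1 was compared with the control line on 3 arrays each, 6 of the 12 arrays of the study. The ΔSAP arrays are those titled for an Mkl1 construct named for its missing SAP domain, and all 30212 of 34760 probe sets with a mean log2 value of at least 4 over the 12 arrays entered the comparison. The other 6 arrays come from a line named FL, read here as full-length Mkl1, and a line named mutB1, which by its name carries a mutated B1 region; they serve to show where ΔSAP departs from the other construct lines. All 4 lines share the BALB/cfC3H background and were kept in triplicate for 48 h in medium with 0.03% serum, and 100 ng of RNA per culture was labelled. Each construct is represented by a single stable line, so construct and line cannot be told apart, and what the control line carries is not given in the labels. The p-values therefore measure only how replicate cultures of 1 line vary.

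Mkl1, now named Mrtfa, is a coactivator of serum response factor (Srf) that is held in the cytoplasm by monomeric actin and enters the nucleus as actin polymerises. Through its B1 region it binds Srf, and the complex acts on CArG boxes of cytoskeletal, contractile and immediate early genes. The SAP domain, a short helical fold found in chromatin-associated proteins, is a putative DNA-binding motif. The design of the study sets lines with the B1 mutation or without the SAP domain against the full-length line, and the ΔSAP line against control addresses what an Mkl1 without this domain still changes and what it adds.

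The values are log2 RMA values, in which 1 unit is a 2-fold difference. Array medians lay between 6.35 and 6.46, and a line mean under 6.35 is called low, since its signal may be background and a change against it may be understated. The keratin genes Krt8 and Krt18, which define simple epithelium, read between 12.72 and 13.20 on the arrays of both lines. The mean of 12 mammary epithelial markers was 9.21 to 9.27 on the control arrays and 9.69 to 9.71 on the ΔSAP arrays. Of these markers 5 rose and 0 fell, though Krt8 (-0.08) and Krt18 (-0.13) passed as falls under limma-trend, and Krt5, Krt14 and Cldn7 were low in the control line. Of 13 leukocyte markers 0 passed in either direction, and 11 were low in both lines, with array means of 5.27 to 5.34 in control and 5.22 to 5.34 in ΔSAP; the leukocyte genes that were not low were Cd68 and Cd3e, and Cd68 (0.42) passed under limma-trend, further quantile normalization and without control replicate 2. Of 12 fibroblast markers 2 rose and 2 fell (array means of 6.27 to 6.35 and 6.19 to 6.27), of 11 endothelial markers 0 rose and 2 fell (6.31 to 6.41 and 6.23 to 6.31), 1 of them, Tek, not passing in 5 of the 6 fits without 1 array, and of 6 adipocyte markers 0 passed (5.23 to 5.42 and 5.23 to 5.38).

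The construct's own gene came first. Mrtfa (probe set 10430693) read 9.28, 9.28 and 9.26 on the control arrays and 11.94, 11.87 and 11.95 on the ΔSAP arrays. The groups lay far apart, with a difference of 2.64 ± 0.06 (SE, limma adjusted p = 7.5e-10). The FL and mutB1 lines had means of 12.08 and 11.29. ΔSAP differed from FL by -0.16 and stood 0.63 ± 0.06 above mutB1 (limma adjusted p = 1.73e-05). Differences between ΔSAP and mutB1 below are thus not at equal Mrtfa signal. Which part of the transcript the probes cover was not checked. Its partner Srf had a mean of 9.97 ± 0.04 (SD, n = 3) in control and 9.95 ± 0.11 in ΔSAP, with overlapping arrays (limma adjusted p = 0.878), and its relative Mrtfb differed by -0.09 ± 0.04 (limma adjusted p = 0.197). The gene of the matricellular protein tenascin-C, Tnc, read a low 5.83, 5.72 and 5.94 in control and 7.47, 7.82 and 7.81 in ΔSAP. All 3 ΔSAP arrays stood above the control arrays, by 1.87 ± 0.12 (limma adjusted p = 1.51e-06).

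In ΔSAP against control, 243 genes were called higher and 113 lower. Called means a limma adjusted p of at most 0.01, at least a 2-fold difference and a mean of at least 4, the filters of the series' design text. These are 1.33% and 0.619% of the 18259 genes with such a mean; over probe sets, 333 (1.1%) were higher and 134 (0.444%) lower. At the adjusted p alone, 9.38% of 19937 genes rose and 11.7% fell, and the median change over all genes was -0.06. Of the 243, 92 had a low mean in control, and of the 113, 18 had a low mean in ΔSAP. No microRNA gene was among the called genes (0 higher, 0 lower). How many were measured was not counted, so this says nothing of microRNA genes as a group. At the minimum mean of 4, Pgap1, a lipid-remodelling enzyme of GPI anchors, stood just inside (mean 4.01, change 1.01) and the zinc finger gene Zfp991 just outside (mean 3.81, change 1.28).

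**Figure D1:**
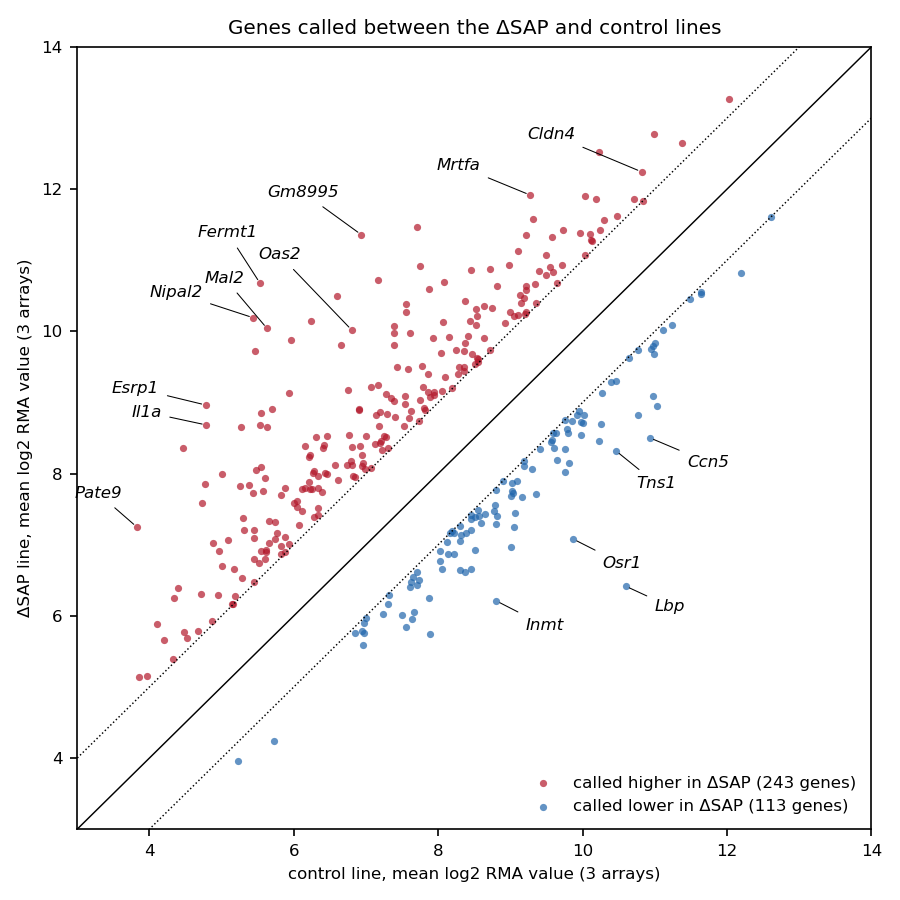
Each point is a gene called between the lines, at its mean log2 RMA value over 3 control arrays (horizontal axis) and 3 ΔSAP arrays (vertical axis); the solid line marks equal levels and the dotted lines a 2-fold difference. The 243 red points are genes higher in ΔSAP, led by Fermt1, and the 113 blue points genes lower in ΔSAP, led by Lbp.

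Direct comparison of ΔSAP with FL sorted these genes into those at like levels in both lines and those that were not. Of the 243 higher genes, 177 were not called between ΔSAP and FL, and for 63 of these 243 the 95% interval of the ΔSAP minus FL difference lay within 0.5 log2 of 0. A further 45 were called above FL as well (background 0.471% of genes), and 21 were called below FL (0.29%). Of the 113 lower genes, 107 were not called against FL and 66 had the interval within 0.5, while 4 were lower still than in FL and 2 higher. The remaining genes without a call are not shown to be alike. How many of all genes have an interval within 0.5 was not counted. The 63 and 66 are therefore not shown to be more or fewer than usual. Against mutB1, 121 of the 243 were called higher in ΔSAP (1.44% of all genes) and 13 lower (0.783%), and 46 of the 113 were called lower and 0 higher. ΔSAP, FL and mutB1 changes against control share the 3 control arrays, so the lines are compared by these direct differences. The direct differences in turn share the ΔSAP arrays on which the 243 and 113 genes were chosen. Shares above those of all genes are therefore partly built in by the choice and only describe the genes.

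Among the rises whose level in ΔSAP lay within 0.5 of FL, several started from low means. Il1a, the alarmin cytokine interleukin-1 alpha, read 4.88, 4.79 and 4.68 in control, 8.44, 8.38 and 8.59 in FL, 5.56, 5.39 and 5.06 in mutB1 and 8.60, 8.68 and 8.77 in ΔSAP. ΔSAP stood above control by 3.90 ± 0.12 (limma adjusted p = 8.04e-09) and differed from FL by 0.21 ± 0.12 (limma adjusted p = 0.283). Only the FL and ΔSAP arrays were high, and mutB1 was 3.35 ± 0.12 below ΔSAP. The desmosomal cadherin Dsg2 was likewise high in FL and ΔSAP alone, with 5.88, 5.86 and 6.05 in control, 8.98, 8.97 and 9.13 in FL, 5.91, 5.71 and 5.91 in mutB1 and 9.08, 9.15 and 9.15 in ΔSAP. It rose by 3.20 ± 0.07 (limma adjusted p = 1.4e-09), and its difference from FL was 0.10 ± 0.07.

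Npr3, the clearance receptor of natriuretic peptides, and the noncoding RNA Lncenc1 also rose in ΔSAP and not in mutB1: Npr3 by 2.60 ± 0.05 against 0.04 in mutB1, and Lncenc1 by 3.16 ± 0.05 against -0.35. The predicted gene Gm8995 rose in all 3 construct lines. It read 6.92, 6.95 and 6.93 in control and 11.31, 11.39 and 11.38 in ΔSAP, a difference of 4.43 ± 0.05 (limma adjusted p = 7.04e-12), beside 4.52 in FL and 4.04 in mutB1. Mfsd2a, a lysophosphatidylcholine transporter, lay between, at 2.05 ± 0.04 in ΔSAP, 2.18 in FL and 0.96 in mutB1. The rest of the 10 largest of these 63 rises were Mrtfa itself and the interferon genes Ifih1, Ifit1 and Gbp9. The 10 differences between ΔSAP and FL ran from -0.37 to 0.39, and 3 of them, those of Gbp9, Npr3 and Lncenc1, passed a limma adjusted p of 0.01. Like levels are therefore a statement on size and not on the test.

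Of the 66 falls within 0.5 of FL, the 10 largest are described. Tns1 (tensin 1), which ties integrins to actin, read 10.44, 10.44 and 10.51 in control, 8.24, 8.07 and 8.38 in FL, 10.66, 10.70 and 10.72 in mutB1 and 8.29, 8.39 and 8.28 in ΔSAP. It fell by 2.14 on the log2 scale (SE 0.07; limma adjusted p = 1.44e-08), and ΔSAP and FL overlapped. The actin-bundling gene Synpo2 read 7.88, 7.87 and 7.90 in control and a low 5.81, 5.87 and 5.53 in ΔSAP (-2.14 ± 0.12; limma adjusted p = 7.29e-07), beside -1.94 in FL and 0.72 in mutB1. Adamts9, a secreted metalloprotease, fell from 10.72, 10.71 and 10.90 to 8.69, 8.93 and 8.87 (-1.94 ± 0.09; limma adjusted p = 2.1e-07), beside -1.98 in FL and 0.26 in mutB1. In these 3 genes mutB1 stood above ΔSAP by more than 2 log2 units.

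Not every shared fall spared mutB1. The neurotrophin receptor Ngfr changed by -1.73 in ΔSAP, -1.45 in FL and -1.86 in mutB1, and the histone-binding gene Zcwpw1 by -1.80, -1.70 and -1.02. Prkch, a protein kinase C isoform, changed by -1.88, -1.76 and -0.21. The glutathione transferase Gstm7, the receptor-modifying Ramp1, the mitochondrial enzyme Sardh and the Arf exchange factor Cyth4 completed the 10, with ΔSAP changes of -1.65, -1.65, -1.62 and -1.61. Gstm genes are near copies, so probes may share signal.

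The interferon response was raised in ΔSAP as in both other construct lines, and stood lower than in FL. Of 28 measured interferon effector genes, 25 rose, 1 fell and 2 did not pass, with a median change of 1.46. Rose and fell mean here, as for every list, a limma adjusted p of at most 0.01 at any fold. Of all genes 9.38% rose and 11.7% fell by this measure, the shares to set beside the counts of every list. Among the 11319 genes with a mean of at least 6.35 the shares were larger, 15.4% and 19.4%. All 8 measured interferon-inducible GTPases rose (median 1.95). The medians in FL and mutB1 against the same control arrays were 1.97 and 1.93 for the effectors and 3.14 and 2.65 for the GTPases. Tested directly, 18 of the 28 effectors were lower and 2 higher in ΔSAP than in FL, against 8.37% and 8.35% of all genes, and all 8 GTPases were lower. Against mutB1, 15 effectors and 7 GTPases were lower, where 11.6% of all genes were.

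Oas2, an enzyme of the double-stranded RNA response, read 6.74, 6.95 and 6.72 in control and a mean of 10.02 ± 0.04 (SD, n = 3) in ΔSAP, up by 3.22 ± 0.08 (limma adjusted p = 1.91e-09). FL stood higher still at 11.07, 11.05 and 11.03, and mutB1 near ΔSAP with a mean of 10.15 ± 0.14. Ifit3, which binds viral RNA complexes, read 7.72, 7.90 and 7.61 in control and 10.89, 10.95 and 10.92 in ΔSAP (3.18 ± 0.07; limma adjusted p = 1.4e-09), and was 0.96 lower than FL without overlap. The antiviral radical-SAM enzyme Rsad2 read a mean of 7.87 ± 0.11 (SD, n = 3) in control and 10.61, 10.59 and 10.59 in ΔSAP (2.73 ± 0.06; limma adjusted p = 8e-10), with FL at 11.75, 11.76 and 11.76. The order control, ΔSAP, mutB1, FL held on every array for Ifit3 and Rsad2.

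The GTPases stood further below FL than the effectors, with median ΔSAP minus FL differences of -1.23 and -0.36. Mx1, which traps viral nucleocapsids, read a low 5.01, 5.07 and 4.79 in control, 8.84, 8.97 and 8.82 in FL, 8.89, 8.76 and 8.50 in mutB1 and 6.86, 6.81 and 7.07 in ΔSAP. Its rise in ΔSAP was 1.95 ± 0.11 (limma adjusted p = 7.13e-07), and ΔSAP minus FL was -1.97 ± 0.11 (limma adjusted p = 2.34e-06). Iigp1, an immunity-related GTPase, rose by 1.98 ± 0.10 and was 2.40 log2 units below mutB1. Gbp3, a guanylate-binding protein, read 7.64, 7.60 and 7.59 in control and 9.92, 10.04 and 9.95 in ΔSAP (2.36 ± 0.04; limma adjusted p = 3.36e-10). The Mx, Gbp, Oas and Ifit genes have near copies whose probes may share signal, among them Ifit3b (3.39 ± 0.13).

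The sensing and transmitting genes moved less as a group: of 25 RNA sensors, STATs and IRFs, 8 rose and 4 fell (median 0.11). Ifih1, the RNA sensor MDA5, rose by 2.16 ± 0.06, the transcription factor Irf7 by 1.87 ± 0.05 and the endosomal sensor Tlr3 by 1.37 ± 0.06. ΔSAP minus FL was -0.12 for Tlr3, -0.24 for Ifih1 and -0.31 for Irf7. Of 13 MHC class I presentation genes 11 rose and 0 fell (median 0.31), with the peptide transporter Tap1 at 1.21 ± 0.05 and the immunoproteasome subunits Psmb8 and Psmb10 at 0.54 and 0.45. Tap1, Psmb8 and Psmb10 lay between control and FL, by -0.59, -0.66 and -0.60 against FL.

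**Figure D2:**
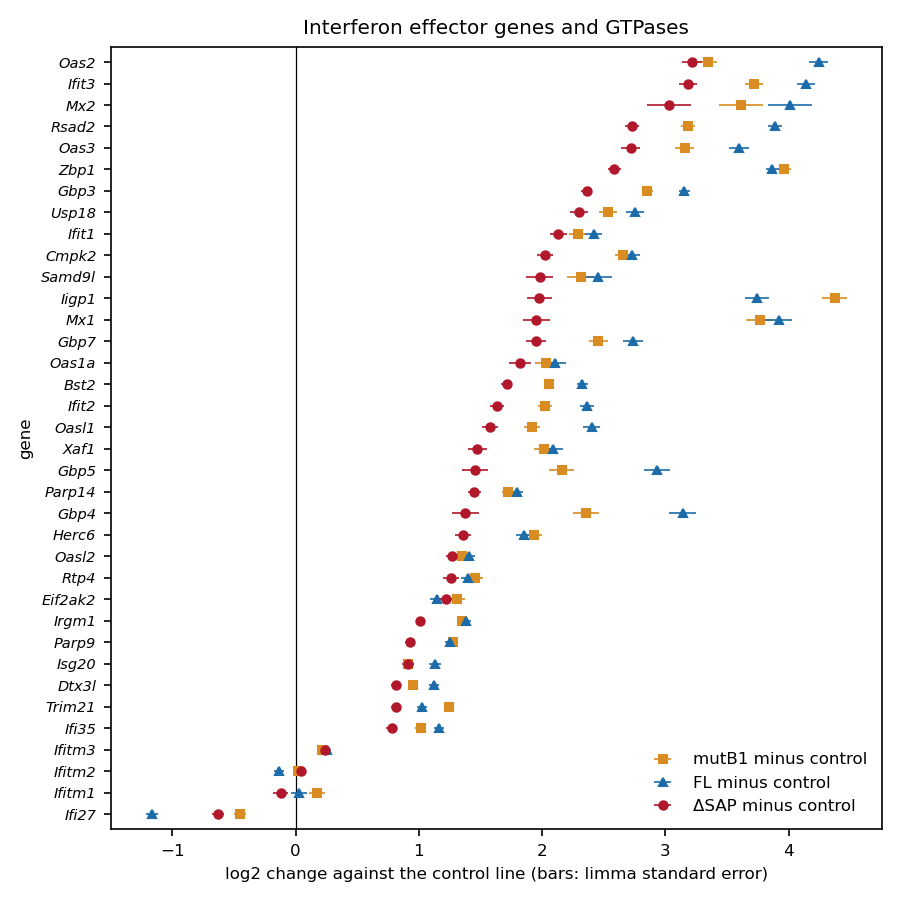
Change against the control line (log2, horizontal axis) for each interferon effector gene and GTPase (vertical axis), as points with limma standard errors for ΔSAP (circles), FL (triangles) and mutB1 (squares), which share the 3 control arrays. ΔSAP lies right of 0 for most genes and left of FL for most of them, as for Mx1 (1.95 against 3.92), whereas Ifi27 lies left of 0.

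The promoters of Ifit3, Rsad2 and Gbp3 are shown because these genes rose together and hold the interferon-stimulated response element, searched as GAAA, any 2 bases and GAAA on both strands. Each is the 250 bases before the gene's start in the RefSeq table of assembly GRCm38.p6 (chr19:34583279-34583528, plus strand; chr12:26456453-26456702, minus strand; chr3:142559794-142560043, plus strand), with matches to this element and to the AP-1 site TGANTCA in capitals.
Ifit3: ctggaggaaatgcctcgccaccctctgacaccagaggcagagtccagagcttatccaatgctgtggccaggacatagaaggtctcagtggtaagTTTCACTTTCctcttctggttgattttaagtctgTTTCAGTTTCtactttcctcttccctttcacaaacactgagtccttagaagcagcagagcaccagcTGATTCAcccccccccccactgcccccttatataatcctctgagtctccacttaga
Rsad2: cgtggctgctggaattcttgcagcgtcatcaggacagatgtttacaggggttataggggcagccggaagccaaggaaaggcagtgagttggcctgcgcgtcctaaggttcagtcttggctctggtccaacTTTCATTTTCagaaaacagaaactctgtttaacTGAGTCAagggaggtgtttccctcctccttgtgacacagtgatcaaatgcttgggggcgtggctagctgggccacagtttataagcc
Gbp3: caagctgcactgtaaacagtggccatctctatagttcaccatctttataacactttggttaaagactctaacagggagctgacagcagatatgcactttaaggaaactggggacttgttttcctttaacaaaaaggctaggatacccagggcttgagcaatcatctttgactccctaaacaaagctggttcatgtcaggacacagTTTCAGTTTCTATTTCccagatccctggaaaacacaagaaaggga
The first element begins 156 bases before the start in Ifit3, 120 in Rsad2 and 45 in Gbp3, where 2 matches overlap. Of the 36 genes of both interferon lists, 25 had an entry, with 29 windows, of which 11 (37.9%) held the element. The share was 2.97% of all 32817 windows in the table, 13.5% (28 of 208) for genes called higher in ΔSAP and 1.89% (2 of 106) for genes called lower. A match describes letters and is not a measured site.

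In 44 genes ΔSAP stood called above control, FL and mutB1 alike (0.241% of the genes with a mean of at least 4), and in 3 genes below all of them (0.0164%). Against control, FL had 9 of the 44 called higher (1.45% of all genes) and mutB1 4 (1.01%), with 7 called lower in mutB1 (0.849%). In 12 of the 44 the mean was low in all 3 other lines. Esrp1, the splicing regulator of epithelial cells, read 4.71, 4.77 and 4.86 in control, 4.86, 4.67 and 4.79 in FL, 4.77, 4.69 and 4.82 in mutB1 and 8.87, 8.97 and 9.05 in ΔSAP. The other lines were all low and level, and ΔSAP stood above each of them by about the same amount, 4.19 ± 0.07 over control (limma adjusted p = 1.35e-10), 4.19 over FL and 4.20 over mutB1. Prss22, a membrane-anchored serine protease of epithelia, read 7.38, 7.42 and 7.39 in control, 7.45, 7.43 and 7.49 in FL, 6.83, 6.87 and 6.88 in mutB1 and 10.06, 10.12 and 10.04 in ΔSAP (2.68 ± 0.04 over control; limma adjusted p = 5.12e-11).

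The membrane protein gene Tmem54 read 6.07, 6.46 and 6.19 in control, 6.84, 7.04 and 7.06 in FL, 6.11, 6.26 and 5.91 in mutB1 and 10.03, 10.05 and 10.38 in ΔSAP, where it was 3.91 ± 0.13 over control (limma adjusted p = 1.86e-08). Nipal2, of the NIPA family of magnesium transporters, was already higher in FL and mutB1 than in control, by 2.32 and 1.92, and highest in ΔSAP, by 4.75 ± 0.05. Gca, the calcium-binding protein grancalcin, followed FL part of the way, at 4.27, 4.41 and 4.71 in control, 6.48, 6.37 and 6.55 in FL and 8.47, 8.30 and 8.30 in ΔSAP. Some of these genes were thus low and level in the other lines, and others were graded across them. Pate9 and Pate14, secreted proteins first described in prostate and testis, rose by 3.42 ± 0.11 and 4.27 ± 0.15; they are near copies of each other and of further Pate genes, so their probes may share signal.

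The others of the leading 12 were the ubiquitin ligase gene Mid2 (2.85 ± 0.08 over control), the Rab GTPase-activating gene Tbc1d30 (2.03 ± 0.07), the SH2 adaptor Sh2d1b1 (2.99 ± 0.15), Kctd12b (3.31 ± 0.11) and Myo5b (2.24 ± 0.08), a myosin that carries recycling vesicles to the apical membrane. Over all 12 the smallest difference from FL was 1.79 and from mutB1 1.92, with limma adjusted p of at most 1.15e-05 and 5.79e-07. The 12 were picked by the size of these same differences, so the values describe the choice and are no separate support. The 3 genes below every other line were Ccrl2, an atypical chemerin receptor (-1.39 ± 0.08 against control), Dock10 (-1.22 ± 0.07) and the pseudophosphatase Dusp27 (-1.76 ± 0.07). All 3 were highest in mutB1, where Dusp27 read 9.20, 9.28 and 9.12 beside 6.50, 6.70 and 6.63 in ΔSAP.

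**Figure D3:**
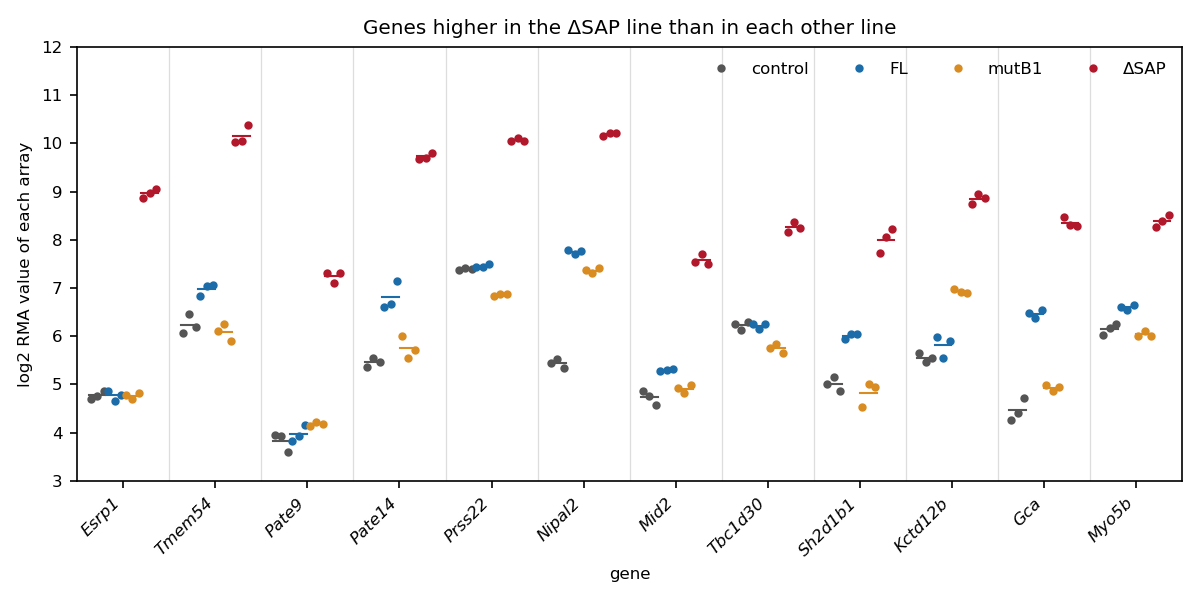
Log2 RMA value of each array (vertical axis) for the 12 genes with the largest margin of ΔSAP over each other line (horizontal axis); points are single arrays of control, FL, mutB1 and ΔSAP, and short bars are means of 3 arrays. The ΔSAP arrays lie above all others for each gene, and for Esrp1 the other 3 lines lie together near 4.8.

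Epithelial adhesion genes were compared next. Of 32 epithelial junction genes 18 rose and 0 fell (median 0.42). Tested directly, 16 were higher and 1 lower in ΔSAP than in FL, against 8.35% and 8.37% of all genes. Against mutB1, 22 were higher and 0 lower, where 10% of all genes were higher and 11.6% lower. Called above each other line at 2-fold were 3 of the 32, beside 0.241% of the genes with a mean of at least 4. The medians in FL and mutB1 against control were 0.08 and -0.40. Mal2, which carries proteins across the cell to the apical membrane, read 5.60, 5.52 and 5.77 in control, 8.80, 8.84 and 8.98 in FL, 5.72, 5.87 and 5.75 in mutB1 and 10.03, 10.02 and 10.08 in ΔSAP (4.41 ± 0.07 over control; limma adjusted p = 1.35e-10). The claudin Cldn9 read 7.51, 7.54 and 7.59 in control and 10.38, 10.31 and 10.47 in ΔSAP (2.84 ± 0.06; limma adjusted p = 6.66e-10), with FL between at 9.48, 9.37 and 9.48. In both genes the ΔSAP arrays overlapped with no other line.

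Epcam, an adhesion molecule of simple epithelia, read 8.42, 8.42 and 8.48 in control, 8.23, 8.27 and 8.29 in FL, 6.19, 6.48 and 6.54 in mutB1 and 10.12, 10.09 and 10.21 in ΔSAP. It rose by 1.70 ± 0.08 (limma adjusted p = 1.73e-07), while FL differed from control by -0.18. The tight junction claudin Cldn4 rose by 1.43 ± 0.04 (limma adjusted p = 4.85e-09), from 10.80, 10.80 and 10.85 to 12.23, 12.27 and 12.23, and FL differed from control by only 0.17. E-cadherin (Cdh1), the adherens junction protein, rose by 1.03 ± 0.04, from 9.62, 9.62 and 9.72 to 10.68, 10.71 and 10.67, and was 0.38 above FL.

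**Figure D4:**
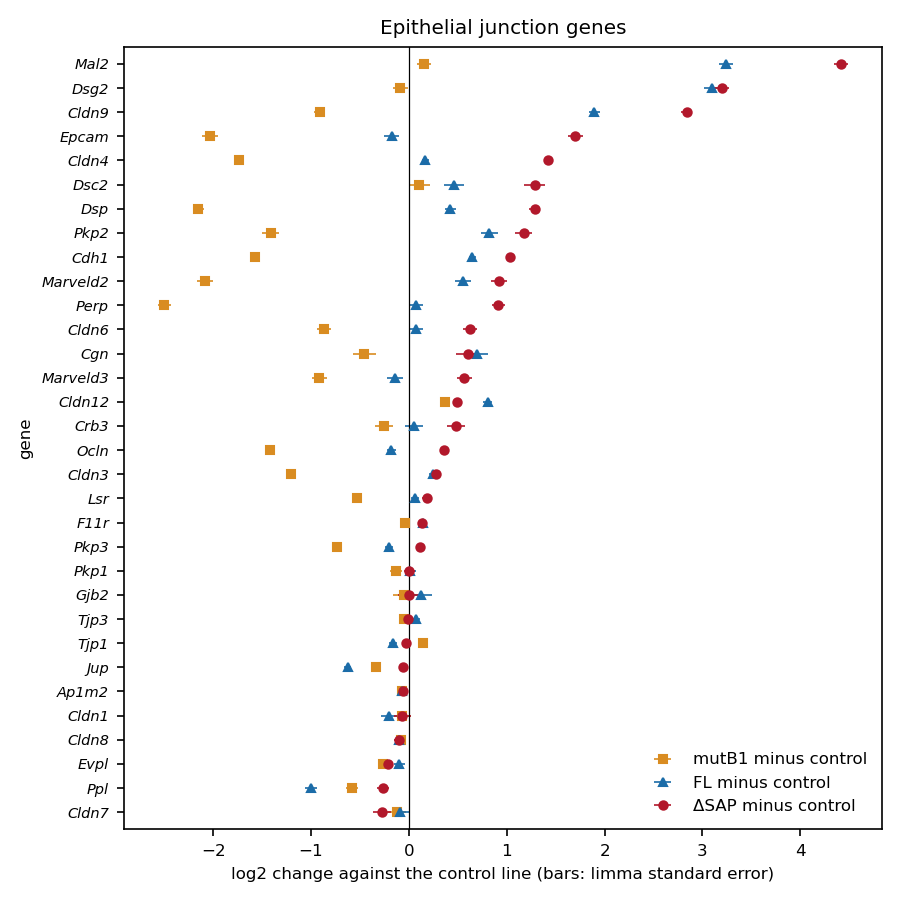
Change against the control line (log2, horizontal axis) of each epithelial junction gene (vertical axis), as points with limma standard errors for ΔSAP (circles), FL (triangles) and mutB1 (squares), which share the 3 control arrays. The ΔSAP points of Mal2, Dsg2, Cldn9 and Epcam lie right of 0, and mutB1 lies left of 0 for many genes, as for Epcam (-2.03).

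Of 19 epithelial splicing and transcription regulators 8 rose and 1 fell, with a median of 0.02. After Esrp1 came the zinc finger repressor Ovol1 (1.33 ± 0.12, from a low mean) and the pioneer factor Foxa1 (0.74 ± 0.07), and Tfap2c fell by 0.76 on the log2 scale (SE 0.08). Of 12 epithelial membrane serine proteases and inhibitors 5 rose and 1 fell. Tmprss11e, a transmembrane serine protease, read 7.90, 7.58 and 7.63 in control, 10.16, 10.08 and 10.16 in FL, 7.09, 6.96 and 6.95 in mutB1 and 11.46, 11.51 and 11.42 in ΔSAP (3.76 ± 0.08; limma adjusted p = 6.97e-10). The matriptase gene St14 rose by 1.25 ± 0.06 and the kallikrein Klk10 by 1.20 ± 0.08, but Klk10 was 0.77 lower than in FL.

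Of 14 keratins 5 rose and 1 fell. Krt19 changed by 1.08 ± 0.07, Krt16 by 0.76 ± 0.10, Krt7 by 0.50 ± 0.04 and Krt23 by -1.61 ± 0.13. Krt16 was low in both control (5.23) and ΔSAP (5.98), and Krt23 was low in ΔSAP (6.06). Of 23 mesenchymal transition genes 2 rose and 6 fell (median -0.10): the platelet-derived growth factor receptors Pdgfra (-1.03 ± 0.06) and Pdgfrb (-0.92 ± 0.10) and the integrin Itgb3 (-0.72 ± 0.07) fell, and the forkhead gene Foxc2 rose by 0.94 ± 0.07. Foxc2 stood above each other line, by 0.97 over FL and 0.81 over mutB1. Pdgfrb was low in ΔSAP (5.92). The ErbB receptor Erbb3 rose by 1.99 ± 0.08 (limma adjusted p = 5.35e-08), from 6.94, 6.76 and 7.01 to 8.78, 8.99 and 8.91, and the carbonic anhydrase Car9 by 1.54 ± 0.07; both were also called above FL and mutB1.

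The largest rise of all was an adhesion gene. Fermt1 (kindlin-1, probe set 10487994), which activates integrins in epithelial cells, read a low 5.44, 5.57 and 5.58 in control, 9.10, 9.15 and 9.09 in FL, 7.10, 7.09 and 7.08 in mutB1 and 10.58, 10.75 and 10.71 in ΔSAP. The 4 lines did not overlap, and ΔSAP exceeded control by 5.15 ± 0.05 ( limma adjusted p = 7.04e-12), a size that rests on a control level which may be background, and FL by 1.57 ± 0.05. Of 25 integrin and focal adhesion genes 7 rose and 6 fell, beside 9.38% and 11.7% of all genes. The collagen receptor subunit Itga2 rose by 1.17 ± 0.04 and Itgb8 by 0.95 ± 0.07. Tmc4, a transmembrane channel-like gene, read 6.31, 6.79 and 6.68 in control and 10.49 on each ΔSAP array (3.90 ± 0.10). The kinase Sgk3 (3.91 ± 0.08) and the ubiquitin-conjugating family gene Ube2ql1 (3.57 ± 0.05) rose as well, and in FL and mutB1 too, by 2.74 and 2.12 for Sgk3 and 3.11 and 2.60 for Ube2ql1.

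The promoters of Il1a and Tmem54, a gene at its FL level and a gene above every other line, both hold the AP-1 site TGANTCA (capitals), and that of Tmem54 the M-CAT element GGAATG as well, to which TEAD factors bind. The windows are again 250 bases before the start in RefSeq, GRCm38.p6 (chr2:129309973-129310222, minus strand; chr4:129105280-129105529, plus strand).
Il1a: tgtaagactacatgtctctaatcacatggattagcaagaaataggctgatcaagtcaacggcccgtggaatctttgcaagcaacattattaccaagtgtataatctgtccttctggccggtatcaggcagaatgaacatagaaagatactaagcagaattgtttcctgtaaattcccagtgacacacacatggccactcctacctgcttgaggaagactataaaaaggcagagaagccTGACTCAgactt
Tmem54: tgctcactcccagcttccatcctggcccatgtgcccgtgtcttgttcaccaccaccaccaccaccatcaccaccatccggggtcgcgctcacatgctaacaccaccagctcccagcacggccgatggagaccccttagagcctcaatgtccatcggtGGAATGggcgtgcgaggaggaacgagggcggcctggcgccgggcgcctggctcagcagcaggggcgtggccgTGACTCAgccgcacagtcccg
The Il1a site begins 12 bases before the start and the Tmem54 M-CAT element 93 bases before it. Searched on both strands, the AP-1 site was in 29 of 208 windows (13.9%) of genes called higher in ΔSAP, 8 of 106 (7.55%) of genes called lower and 6.75% of all windows. The M-CAT element was in 12.5%, 14.2% and 12.6% of them. In both interferon lists, whose genes overlap those called higher, 7 of 29 windows (24.1%) held the AP-1 site. The grainyhead site AACCGGTT was in 0 of the 208 and 0 of the 106, and in 0.116% of all windows.

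Of 39 cytoskeletal and contractile targets of Mkl1 and Srf, 10 rose and 3 fell, beside 9.38% and 11.7% of all genes, and the median was 0.02. The muscle-type actins and tropomyosin led: Tpm2 read a low 5.93, 5.76 and 5.78 in control, 5.80, 5.80 and 5.74 in FL, 5.63, 5.64 and 5.44 in mutB1 and 6.62, 6.97 and 7.03 in ΔSAP (1.05 ± 0.10 over control; limma adjusted p = 3.51e-05). It was the only one of the list called above each other line, beside 0.241% of the genes with a mean of at least 4. The enteric smooth muscle actin Actg2 rose by 0.90 ± 0.08, from a low 5.81, 5.64 and 5.93 to 6.69, 6.66 and 6.74, and vascular smooth muscle actin Acta2 by 0.79 ± 0.06, from a low 6.22, 6.23 and 6.14 to 6.90, 6.92 and 7.13. The skeletal actin Acta1 read 7.07, 6.96 and 7.12 in control and 7.36, 7.72 and 7.62 in ΔSAP (0.51 ± 0.09; limma adjusted p = 0.00231), a pass that was lost when only the 6 arrays were fitted, without ΔSAP replicate 3 (0.49) and without control replicate 2 (0.47). Actin genes are near copies, so their probes may share signal.

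The promoters of Acta1, a member of that list, and Tmc4, one of the largest rises, show the CArG box (capitals), the Srf site, and in Acta1 the M-CAT element on the opposite strand (chr8:123894776-123895025, minus strand; chr7:3677554-3677803, minus strand; RefSeq, GRCm38.p6).
Acta1: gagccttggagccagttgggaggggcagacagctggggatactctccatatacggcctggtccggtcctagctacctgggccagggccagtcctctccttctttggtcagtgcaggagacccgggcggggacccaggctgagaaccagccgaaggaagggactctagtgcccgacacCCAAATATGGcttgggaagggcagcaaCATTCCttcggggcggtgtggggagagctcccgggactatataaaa
Tmc4: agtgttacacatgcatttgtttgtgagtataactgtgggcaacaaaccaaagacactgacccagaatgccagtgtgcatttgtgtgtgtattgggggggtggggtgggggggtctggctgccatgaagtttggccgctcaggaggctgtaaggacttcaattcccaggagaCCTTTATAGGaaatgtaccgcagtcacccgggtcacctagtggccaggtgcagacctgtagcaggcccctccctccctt
The box begins 73 bases before the start in Acta1 and 79 in Tmc4. Of 43 windows of the list 10 (23.3%) held it, of 208 windows of genes called higher 4 (1.92%), of 106 windows of genes called lower 1 (0.943%) and of all windows 1.47%.

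Of 29 immediate early genes, the rapid targets of growth factor signalling, 14 rose and 4 fell (median 0.24), led by Atf3 (0.63 ± 0.08), Junb (0.59 ± 0.04), Klf4 (0.58 ± 0.06) and Fosb (0.56 ± 0.05). None of them reached a 2-fold difference (0 called). This is near the 1.33% called higher and 0.619% called lower among genes with a mean of at least 4. Against FL 6 of the 29 were higher and 6 lower, beside 8.35% and 8.37% of all genes. Atf3 stood 0.62 below FL, and Junb 0.37 and Klf4 0.38 above it. Of 22 YAP-TEAD targets 6 rose and 4 fell (median -0.03), with the ectonucleotidase Nt5e at 0.68 ± 0.04, and of 15 Mrtf and Srf factors and partners 1 rose, Mrtfa, and 1 fell.

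Among the falls, Lbp, the lipopolysaccharide-binding protein of the acute phase, was the largest. It read 10.57, 10.65 and 10.57 in control, 6.76, 6.50 and 6.97 in FL, 9.76, 9.81 and 9.96 in mutB1 and 6.33, 6.65 and 6.27 in ΔSAP, where it was 18.1-fold lower than in control (-4.18 ± 0.12; limma adjusted p = 8.04e-09). FL and ΔSAP overlapped, and mutB1 lay 0.75 below control. The transcription factor Osr1 had another order: 9.87, 9.90 and 9.84 in control, 8.79, 8.88 and 8.99 in FL, 6.74, 6.57 and 6.67 in mutB1 and 6.99, 7.17 and 7.08 in ΔSAP (-2.79 ± 0.07; limma adjusted p = 1.65e-09). It was 1.81 log2 units lower in ΔSAP than in FL and nearest to mutB1.

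Inmt, a methyltransferase of indole amines, changed by -2.59 ± 0.11, the matricellular gene Ccn5 by -2.43 ± 0.07 and the glutathione transferase Gstm1 by -2.08 ± 0.05. Lrrc32, which docks latent TGF-beta at the cell surface, changed by -2.04 ± 0.09 and the immune checkpoint gene Vsir by -1.80 ± 0.06. The glycosyltransferase Galnt15 changed by -1.77 ± 0.06, to a level 0.87 above FL. In FL these 6 changed by -2.89, -1.98, -1.68, -2.37, -1.42 and -2.64, and in mutB1 by -0.53, -0.85, -0.37, -1.47, -1.35 and -0.93. All 6 fell in each construct line at a limma adjusted p of at most 0.01. Inmt was low in ΔSAP (6.21) and FL (5.91), so its changes there may be understated.

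Cytokine and matrix lists were mixed. Of 37 NF-kB targets and cytokines 12 rose and 7 fell (median 0.07, beside 0.42 in FL). After Il1a the largest rise was the interferon-induced chemokine Cxcl10 (1.68 ± 0.14), and the alarmin Il33 fell by 1.35 on the log2 scale, to a level 1.37 above FL: 8.14, 8.23 and 8.29 in control, 5.42, 5.46 and 5.61 in FL and 6.77, 6.98 and 6.85 in ΔSAP. Of 36 matrix and matricellular genes 5 rose and 7 fell, with Tnc, the laminin chain Lamb3 (1.30 ± 0.06) and the fibulin Fbln1 (1.07 ± 0.05) up and Ccn5 down. Of 30 extracellular proteases and inhibitors 10 rose and 3 fell, beside 9.38% and 11.7% of all genes. The collagenase Mmp13 rose by 1.48 ± 0.07, the stromelysin Mmp10 by 1.27 ± 0.06 and Adamts1 by 1.12 ± 0.04.

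Of 28 TGF-beta and BMP response genes 6 rose and 7 fell (median -0.04), beside 9.38% and 11.7% of all genes. The feedback inhibitor Pmepa1 rose by 1.67 ± 0.04 (limma adjusted p = 2.27e-09), the activin subunit Inhba by 1.33 ± 0.05 and the BMP target Id3 by 1.15 ± 0.04, each to a level above FL, by 0.51, 0.86 and 0.48. The coreceptor Tgfbr3 fell by 1.00 and the ligand Tgfb2 by 0.78. Of 24 genes of ERK feedback and ErbB ligands 7 rose and 8 fell, with Fgfbp1, a carrier of fibroblast growth factors, at 1.95 ± 0.09, and the ErbB ligands Btc and Hbegf at 0.92 and 0.85.

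Cholesterol synthesis and stress genes stood apart from FL. Of 20 cholesterol synthesis genes 9 rose and 0 fell in ΔSAP (median 0.18), with Cyp51 at 0.46 ± 0.06 and Msmo1 at 0.41 ± 0.04, both sterol demethylases of the pathway, while the FL median against control was -0.37. Directly, 19 of the 20 were higher in ΔSAP than in FL, and 0 lower. Of all genes 8.35% were higher and 8.37% lower than in FL, the shares for the Atf4 and endoplasmic reticulum counts too. Of 25 Atf4 amino acid response genes 13 rose and 2 fell (median 0.23, beside 0.56 in FL), led by Chac1, which degrades glutathione (1.30 ± 0.07), the mitochondrial folate enzyme Mthfd2 (1.06 ± 0.04) and Sesn2 (0.89 ± 0.05), and 18 were lower than in FL. Of 24 endoplasmic reticulum genes 14 rose and 3 fell (median 0.21, beside 0.49), and 19 were lower than in FL.

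Of 29 DNA replication genes 19 rose and 0 fell, all by less than 2-fold (median 0.23, beside 0.23 in FL and 0.33 in mutB1). That 0 were called is near the 1.33% called higher and 0.619% called lower among genes with a mean of at least 4. Ccne2 rose by 0.49 ± 0.05, Ccne1 by 0.47 ± 0.05 and the origin gene Orc1 by 0.44 ± 0.05. Of 25 mitosis genes 4 rose and 3 fell, and the 4 that rose (Ccna2, Cdk1, Ndc80 and Ttk) did not pass when only the 6 arrays were fitted, after median centring or in several fits without 1 array. Cyclin Ccnd2 rose by 1.72 ± 0.09, from 7.18, 7.40 and 7.47 to 8.89, 9.17 and 9.15, and was 1.61 lower than in FL; it leads the list of 15 D cyclins and G1 regulators, of which 3 rose and 2 fell.

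In the remaining lists the counts of rises and falls were 7 and 2 of 20 p53 target genes (Perp, a desmosomal p53 target, at 0.91 ± 0.06), 3 and 5 of 20 Nrf2 and glutathione genes, 2 and 7 of 25 glycolysis and hypoxia genes, 1 and 2 of 15 fatty acid synthesis genes, 0 and 3 of 13 S100 genes and 0 and 1 of 17 ribosomal protein genes. Rps14, the 1 ribosomal gene, and S100a1, Me1 and Srebf1, of the S100 and fatty acid lists, did not pass with only the 6 arrays or in at least 4 of the 6 fits without 1 array. The medians of these 6 lists lay between -0.12 and 0.08, beside -0.06 over all genes. The counts were not all near those of all genes, of which 9.38% rose and 11.7% fell. Larger shares than these rose among the p53 targets (7 of 20). The same held for falls among the glycolysis and hypoxia (7 of 25), Nrf2 (5 of 20) and S100 genes (3 of 13). Among the 11319 genes with a mean of at least 6.35, 15.4% rose and 19.4% fell. Set beside those genes, the excess is smaller.

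**Figure D5:**
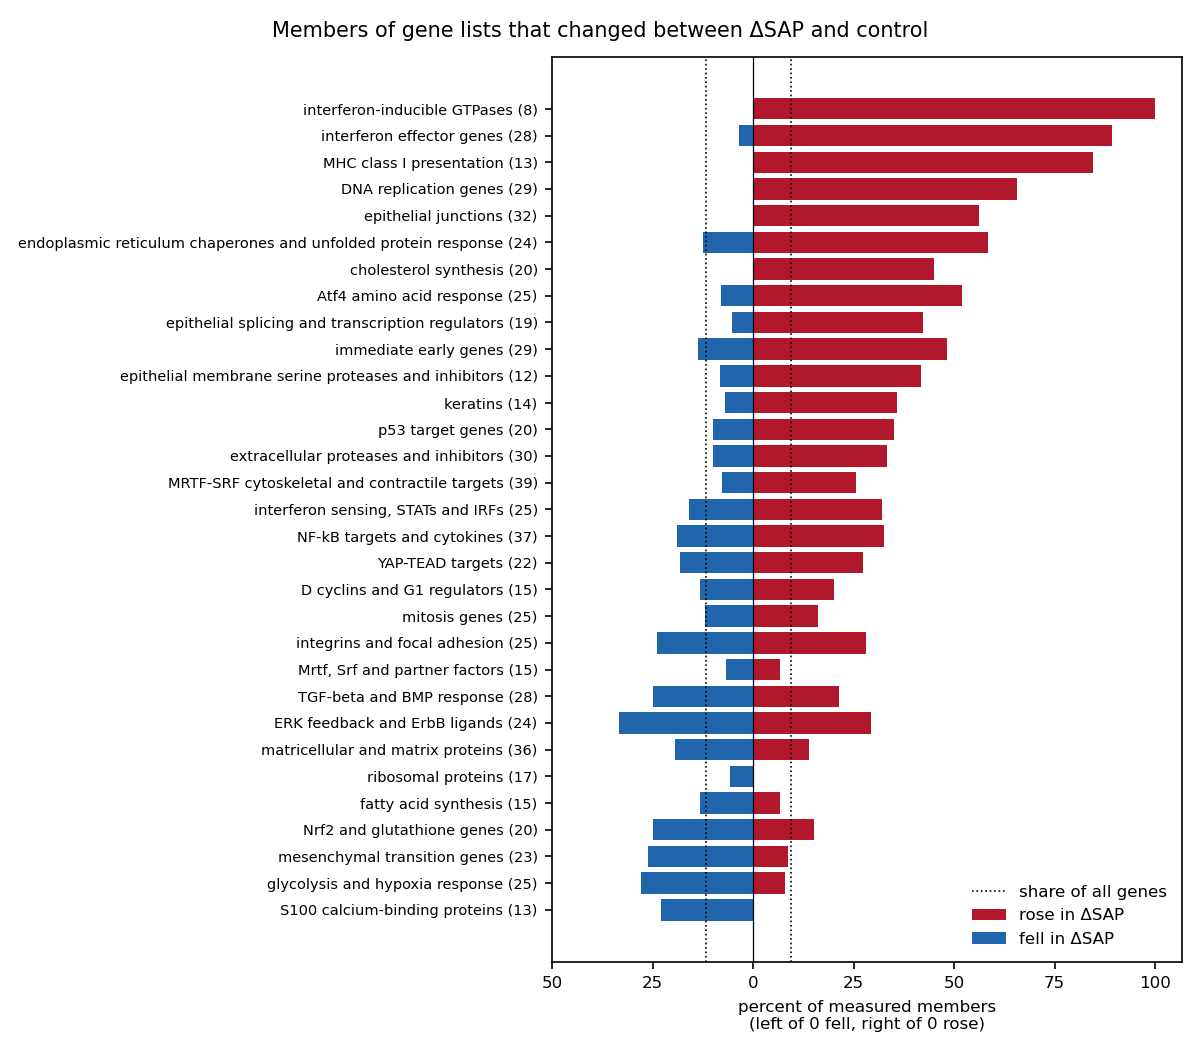
Percent of each list's measured members (number in brackets) that rose (red, right) or fell (blue, left) in ΔSAP against control at a limma adjusted p of at most 0.01; dotted lines mark the share of all genes, 9.38% rising and 11.7% falling. The interferon lists (8 of 8 and 25 of 28), MHC class I (11 of 13), DNA replication (19 of 29), endoplasmic reticulum genes (14 of 24) and epithelial junctions (18 of 32) reach furthest to the right.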

How the data were processed

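The authors deposited log2 expression values per probe set, made with RMA in the affy package of Bioconductor 2.4, per the series' design text; the submitters' processing notes name R 2.10.0. No source used here gives scan dates or batches. Of 34760 probe sets, 21640 had 1 gene symbol in GEO's platform annotation, 1321 several and 11799 none; 21553 matched RefSeq by Entrez identifier. A gene is its brightest single-symbol probe set, and list members without one were not analysed here. Lines were compared with limma 3.58.1 in R 4.3.3 (lmFit, eBayes), in 1 fit of 12 arrays with 8 residual degrees of freedom and Benjamini-Hochberg adjustment over all probe sets. SE is limma's. The method was tested on simulated data. Arrays have no counts, so their number limits precision.

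The members and lists were chosen with earlier results of these data known. Named genes are Mrtfa, Mrtfb, Srf and Tnc, the 15 largest called changes each way, up to 12 beyond every other line, 10 each way within 0.5 of FL, up to 4 by size per list, cell type markers, and Pgap1 and Zfp991 beside the minimum mean. Alternatives were other filters, centring, a replicate block, a trend, fewer arrays and leaving out each array. Same-numbered ΔSAP and control arrays deviated with correlations of 0.17, -0.20 and -0.16, so the numbers do not pair the arrays. Of the arrays with unlike numbers, control 2 with ΔSAP 3 gave 0.27 and control 3 with ΔSAP 2 gave 0.24. The other such pairs ran from -0.14 to -0.02. The positive values (control 1 with ΔSAP 1, control 2 with ΔSAP 3, control 3 with ΔSAP 2) match each control array to a different ΔSAP array. The replicate block followed the array numbers and not this order. Whether arrays shared handling under this or another order was not tested.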

Additional observations from a re-analysis of the deposited data

Results flagged for a closer look

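In 6 of the named genes the ΔSAP line stood called above control and the mutB1 line called below it. A called ΔSAP minus mutB1 difference was part of the rule that picked these genes. Its size and p-value therefore restate the choice and are no separate support. This difference was 3.74 for Epcam, 3.16 for Cldn4, 2.61 for Cdh1, 2.71 for Krt19, 2.81 for St14 and 2.63 for Car9, with limma adjusted p between 2.76e-11 and 2.85e-09. Epcam, Cldn4, Cdh1 and Krt19 are also epithelial markers.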

How the results depend on the processing

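The main counts of probe sets were 333 higher and 134 lower in ΔSAP than control, and 48 higher and 3 lower than each other line. Without the fold filter they were 2400, 2707, 394 and 352. With a test against a 2-fold change (limma's treat) they were 153, 40, 18 and 0. Under a minimum mean of 6, no minimum, a mean over the 6 arrays, a fit of the compared lines alone, median centring, further quantile normalization and limma-trend all 4 counts stayed within 1.5 times. A replicate block gave 329, 135, 48 and 3; the numbers do not pair the arrays. Leaving out 1 array of either line gave 306 to 378 higher, 133 to 143 lower, 45 to 52 above each other line and 2 to 3 below. No named gene past the test changed direction in the other fits. Nor did any probe set called against control in both the main and another of these fits. Other genes were not checked for direction. With only the 6 arrays, 13 named genes no longer passed the adjusted p: Acta1, Ccna2, Cdk1, Me1, Ndc80, Nlrc5, Postn, Rps14, S100a1, Smad3, Srebf1, Tek and Ttk; such a fit has fewer degrees of freedom. Leaving out 1 array did the same to 10 of them (all but Nlrc5, Postn and Smad3) in at least 1 setting: for Tek, an endothelial marker, without 5 of the 6 arrays. Median centring took the pass from 7 named genes, the replicate block from 6, and quantile normalization and limma-trend from 1 each. RMA gives no detection call, so values near 6.35 and below limit what can be said of low genes.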

Other observations

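By chromosome, over 11319 genes with a mean of at least 6.35, the median ΔSAP minus control change was -0.15 on chromosomes 12 and 6, -0.13 on 11 and -0.12 on 2, against -0.03 over all, and 0.06 on chromosome 10. The share of genes lower at an adjusted p of at most 0.01 in limma was 36.5%, 35.7%, 36.0% and 32.0% on those 4, against 19.4% over all, and 9.38% on chromosome 10. The medians in FL on chromosomes 12, 6, 11 and 2 were -0.11, -0.00, -0.03 and -0.09, and in mutB1 -0.36, 0.02, -0.05 and 0.06, against the same control arrays. The ΔSAP minus FL medians ran from -0.16 on chromosome 6 to 0.14 on chromosome 17. Genes of a chromosome are not independent, and no test was made of these medians.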
